A study of Mus musculus with 4 samples.

Results

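A network of 10 imprinted genes that act on growth was followed in the skin of Tsk1/+ mice: Meg3, H19, Igf2, Dlk1, Peg3, Cdkn1c, Grb10, Plagl1, Mest and Ndn. Every probe annotated with one of these symbols was taken, which gave 21 probes of 10 genes among 32664 tested probes of 19532 genes. Total RNA of skin (Cy3) was hybridised on 4 two-colour arrays, numbered 1-1, 1-2, 2-1 and 2-2 in their titles. Each was set against cell-line RNA that the labels call UMR (Cy5). Whether UMR is a single line or a pool of lines was not determined here. All 4 samples are heterozygous for Tsk1, a fibrillin-1 mutation that thickens the skin and serves as a model of scleroderma. The labels used here give no age, sex, skin site or treatment, no wild-type skin was analysed here, and the values compare skin with cultured cells, not mutant with normal skin. Whether the samples are different animals is not stated, and the p-values below measure a spread over samples that may be technical only.

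An imprinted gene is read mainly from the copy inherited from a given parent, and DNA methylation set in the germ line marks the parental copies as different. Many imprinted genes regulate fetal growth and are co-expressed in a network in which Plagl1, a zinc-finger transcription factor, and the H19 RNA take part; the network is highly expressed before birth and falls in most organs afterwards. In mouse, Igf2, Dlk1, Peg3, Plagl1, Mest and Ndn are expressed from the paternal copy and H19, Meg3 and Cdkn1c from the maternal copy, while for Grb10 the expressed copy depends on the tissue.

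The members lie in several clusters (coordinates from RefSeq, GRCm38.p6). Dlk1 (protein-coding, chr12:109452485-109463336) and Meg3 (lncRNA, chr12:109540996-109571729) lie 77.7 kb apart. On chromosome 7, H19 (lncRNA, chr7:142575530-142578146) and Igf2 (chr7:142650768-142666816) lie 72.6 kb apart, and Cdkn1c (chr7:143458339-143461059) lies 792 kb further on. Peg3 (chr7:6703892-6730462) and Ndn (chr7:62348277-62349928) are on chromosome 7 as well, in clusters of their own. Mest is at chr6:30733506-30748466, Plagl1 at chr10:13090832-13131694 and Grb10 at chr11:11930499-12037428.

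The promoter windows of 4 members are shown because they include the neighbours with opposite ratios, Dlk1 and Meg3, and both motifs that were searched. Each window runs from 250 bases before to 50 bases after a RefSeq start (GRCm38.p6), in the direction of the gene. Capitals mark TGCCGC or its reverse complement GCGGCA, the core motif of ZFP57, a protein that keeps imprints methylated, and GGGGCCCC, a palindrome bound by PLAGL1.
Dlk1 (plus strand, chr12:109452573-109452872): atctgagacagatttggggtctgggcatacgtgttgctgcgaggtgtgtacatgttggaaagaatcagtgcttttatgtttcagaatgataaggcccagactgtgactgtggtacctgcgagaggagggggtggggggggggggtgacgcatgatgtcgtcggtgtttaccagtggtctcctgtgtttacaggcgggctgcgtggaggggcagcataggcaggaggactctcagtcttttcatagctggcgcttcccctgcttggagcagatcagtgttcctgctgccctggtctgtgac
Meg3, first start (plus strand, chr12:109540746-109541045): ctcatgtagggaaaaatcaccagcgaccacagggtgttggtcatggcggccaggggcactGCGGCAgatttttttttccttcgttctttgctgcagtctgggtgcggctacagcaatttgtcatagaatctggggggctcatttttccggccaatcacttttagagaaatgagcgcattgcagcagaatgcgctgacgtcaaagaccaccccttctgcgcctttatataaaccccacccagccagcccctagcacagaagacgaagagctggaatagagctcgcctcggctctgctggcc
Mest, second start (plus strand, chr6:30737800-30738099): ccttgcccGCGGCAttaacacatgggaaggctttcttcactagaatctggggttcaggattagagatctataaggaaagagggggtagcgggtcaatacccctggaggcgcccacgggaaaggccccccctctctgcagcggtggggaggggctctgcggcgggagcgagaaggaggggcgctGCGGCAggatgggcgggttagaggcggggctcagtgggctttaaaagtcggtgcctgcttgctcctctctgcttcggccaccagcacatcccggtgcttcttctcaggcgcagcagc
Peg3 (minus strand, chr7:6730370-6730669): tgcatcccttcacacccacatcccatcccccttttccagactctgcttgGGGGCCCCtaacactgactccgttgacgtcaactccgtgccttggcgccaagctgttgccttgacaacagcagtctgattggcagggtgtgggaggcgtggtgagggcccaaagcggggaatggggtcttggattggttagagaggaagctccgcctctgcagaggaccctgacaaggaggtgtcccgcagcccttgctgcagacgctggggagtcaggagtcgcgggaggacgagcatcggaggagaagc

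Of the 10 members, 8 had a window in the table, with 15 windows in all. The ZFP57 core, read on both strands, stood in 6 of these 15 windows (of Grb10, Igf2, Meg3, Mest and Plagl1), and 11.6% of all 32851 windows held it. Of these 6, 2 are Mest windows that overlap almost wholly and hold the same matches, so that 1 sequence is counted 2 times. GGGGCCCC stood in 1 of the 15, that of Peg3, and in 1.08% of all windows. One Grb10 window held 45 CG dinucleotides, a count exceeded by 1.65% of windows, whereas the Dlk1 window held 9 and the second Meg3 window 1; the median window held 7. These letters describe the windows only.

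H19, Mest and Meg3, which differed from the reference, also span miRNA genes, whose mature products the probes of the host RNAs do not measure. The 7 mature sequences (RefSeq, GRCm38.p6) are given for that reason, with the seed, bases 2 to 8, in capitals; no seed is shared among them.
miR-675-5p (within H19): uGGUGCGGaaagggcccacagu
miR-675-3p (within H19): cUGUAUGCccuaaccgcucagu
miR-335-5p (within Mest): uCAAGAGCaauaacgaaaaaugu
miR-335-3p (within Mest): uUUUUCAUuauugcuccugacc
miR-770-5p (within Meg3): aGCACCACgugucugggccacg
miR-770-3p (within Meg3): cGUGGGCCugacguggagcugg
miR-1906 (within Meg3): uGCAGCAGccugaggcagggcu

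Each deposited value is a log ratio of the array's channels, with a numerator that the labels do not name. The median deposited value of 14 cornified epidermis genes, which belong to skin and not to ordinary cell lines, was -5.35, -5.06, -4.93 and -5.94 on arrays 1-1, 1-2, 2-1 and 2-2. Signs were therefore turned, and a positive log2 ratio below means skin above the reference; this direction is likely and not stated by the labels. That Dlk1 lies on the other side of the reference from the remaining members that passed does not depend on it. Because skin was always in Cy3, an effect of the dye cannot be told apart from a difference between skin and reference. Exact zeros made up 21.4% to 29.1% of the probes of an array, and 23.1% to 25.0% stood on a value shared by at least 100 probes of that array, called a repeated value here. Among the 84 member values, 15 were listed at 0, 12 stood on a repeated value and 57 were values of their own. A zero or a repeated value may not be a measured ratio, so the members are given array by array.

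In these samples 6 of the 10 members had a probe higher in skin than in the reference and 1, Dlk1, was lower with both of its probes. A probe passed when its Benjamini-Hochberg adjusted p over all probes (limma) was below 0.05 and skin and reference differed at least 2-fold on average, a minimum size of 1 in log2. By this rule 7 of the 21 member probes were higher and 2 lower, where 10.5% of all probes were higher and 8.22% lower. Counted by gene, with the probes of a gene averaged, 5 members were higher (Meg3, H19, Cdkn1c, Ndn and Mest) and 1 lower, against 11.0% and 7.52% of all genes. The median member gene stood at 1.33 and the median of all genes at 0.02. The members were chosen with earlier results of these data known, so these counts and medians describe them and are no test of the network. Of the 12 member probes with 4 values of their own, 6 were higher, 2 lower and 4 did not pass. The share of all probes under this filter was not taken. Under the looser filter of no zero, 16.2% of 21067 probes were higher and 12.7% lower. In whole skin, a difference in the number of cells of a type and a difference in RNA per cell cannot be told apart.

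**Figure D1:**
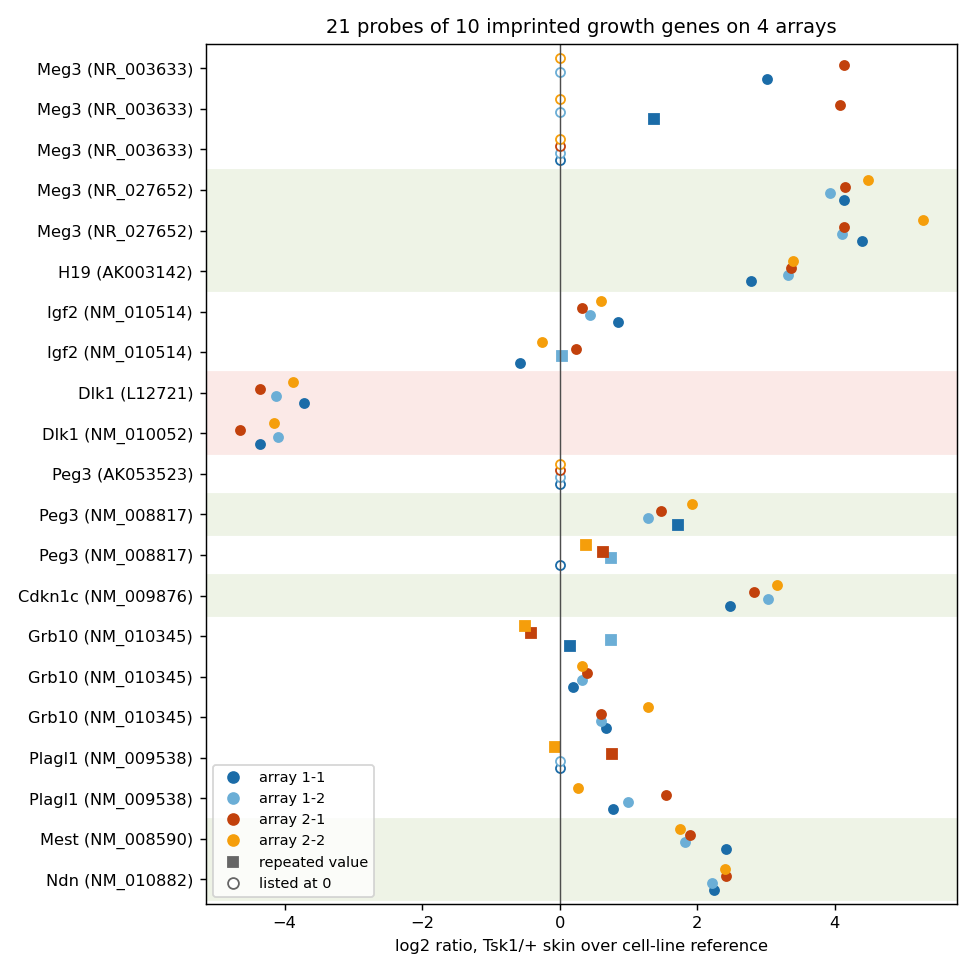
Log2 ratio of Tsk1/+ skin over the cell-line reference (x axis) for each of the 21 member probes (rows, with the accession of the probe's target), 1 point per array; open circles are values listed at 0 and squares repeated values. Shaded rows passed the test: the Dlk1 probes lie between -4.65 and -3.71, and the Meg3 probes to NR_027652 between 3.94 and 5.29.

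Meg3, a maternally expressed long non-coding RNA that can restrain cell growth, stood farthest above the reference, but only with the probes annotated to transcript NR_027652. The first of these was at 4.13, 3.94, 4.15 and 4.49 on arrays 1-1, 1-2, 2-1 and 2-2, a mean of 4.18 ± 0.23 (SD, n = 4, here and for each ± below), or 18.1-fold (adjusted p = 0.000441). The second stood at 4.40, 4.11, 4.13 and 5.29, a mean of 4.48 ± 0.55 and 22.3-fold (adjusted p = 0.00138). All 8 of these values lay far above 0, and 1.23% to 1.52% of all probes had a higher mean.

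Of the 3 Meg3 probes annotated to NR_003633, 2 had a ratio on arrays 1-1 and 2-1 only. One had ratios of 3.01 (array 1-1) and 4.14 (array 2-1), whereas arrays 1-2 and 2-2 list it at 0. Another was at 1.37, a repeated value, and at 4.08 on the same arrays 1-1 and 2-1, again with zeros on the other two. The last was listed at 0 on every array. None of the 3 passed (adjusted p = 0.261, 0.338 and 1). Whether the zeros are absent signal or failed spots was not tested. Averaged over its 5 probes, Meg3 stood at 2.36 ± 0.74 (adjusted p = 0.00975). This call of the average ended without array 1-1 (adjusted p = 0.0516) and with the median of the probes (1.79, adjusted p = 0.246). It also ended against a 2-fold change (limma's treat, adjusted p = 0.0817). Without exact zeros the average was 4.07 and passed (adjusted p = 2.63e-05).

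H19, the maternally expressed RNA beside Igf2 that holds miR-675, had 1 probe, at 2.79, 3.32, 3.37 and 3.39. The value of array 1-1 was the lowest and the other 3 lay close together. Its mean was 3.22 ± 0.29, or 9.31-fold above the reference (adjusted p = 0.000813), and 2.64% of probes lay higher.

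Igf2, the fetal insulin-like growth factor expressed from the other parental copy of the same cluster, did not pass with either probe. The first stood at 0.85, 0.44, 0.33 and 0.60, above 0 on all 4 arrays, with a mean of 0.56 ± 0.23 and an adjusted p of 0.0242, below the minimum size. The second was at -0.58, 0.03, 0.24 and -0.25, on both sides of 0, with a mean of -0.14 ± 0.35 (adjusted p = 0.560); its value on array 1-2 was a repeated one. The ranges of H19 and Igf2 on these arrays did not overlap. As each ratio is taken against the same reference, this shows unequal distance from that reference and gives no order of the RNA levels.

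Dlk1, a membrane protein of the EGF-repeat family that holds back fat cell differentiation, was the one member below the reference. Its first probe stood at -3.71, -4.12, -4.36 and -3.87 and its second at -4.35, -4.10, -4.65 and -4.15. The means were -4.02 ± 0.29 (adjusted p = 0.000582) and -4.32 ± 0.25 (adjusted p = 0.000472), 16.2-fold and 19.9-fold below the reference. Of all probes, 0.098% and 0.052% lay lower than these. Both Dlk1 probes, made to different accessions, gave nearly the same ratio, and Dlk1 and its neighbour Meg3 stood on opposite sides of the reference on every array where Meg3 was not listed at 0.

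Cdkn1c, which encodes the cyclin-dependent kinase inhibitor p57, had 1 probe, at 2.48, 3.03, 2.83 and 3.16. Its mean was 2.88 ± 0.29, or 7.35-fold above the reference (adjusted p = 0.000990). As for H19, the lowest value came from array 1-1.

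Ndn, or necdin, a MAGE family protein that restrains proliferation and is known from neurons and muscle, varied least among the members that passed. Its probe stood at 2.24, 2.21, 2.42 and 2.40, with a mean of 2.32 ± 0.11 and 4.98-fold above the reference (adjusted p = 0.000407). Mest, a hydrolase-fold protein linked to fat cell size, stood at 2.42, 1.83, 1.89 and 1.75. Here array 1-1 gave the highest value. The mean of Mest was 1.97 ± 0.30, or 3.93-fold above the reference (adjusted p = 0.00215).

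Peg3, a large zinc-finger protein of growth and maternal behaviour, differed between its probes. One stood at 1.72, 1.29, 1.47 and 1.93, with a mean of 1.60 ± 0.28 (adjusted p = 0.00291), 3.03-fold above the reference; its value on array 1-1 was a repeated one. The second, to the same accession, gave 0.75, 0.63 and 0.39 on arrays 1-2, 2-1 and 2-2, all of them repeated values, and a zero on array 1-1 (adjusted p = 0.109). The third, to AK053523, was listed at 0 on all arrays. The average of the 3 probes was 0.68 ± 0.08, under the minimum size, and 1.23 without exact zeros, where it passed (adjusted p = 0.000441).

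Grb10, an adaptor protein that dampens insulin and IGF receptor signalling, did not pass with any of its 3 probes. The highest stood at 0.68, 0.60, 0.60 and 1.29, a mean of 0.79 ± 0.33 (adjusted p = 0.0253). The next was above 0 on all arrays, with a mean of 0.31 ± 0.09 (adjusted p = 0.00970). Both lay below the minimum size. The values of the remaining probe, between -0.50 and 0.75, were all repeated values.

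Plagl1, the transcription factor of the network, did not pass either. One probe stood at 0.77, 0.99, 1.55 and 0.27, a mean of 0.89 ± 0.53 (adjusted p = 0.0639). The other had zeros on arrays 1-1 and 1-2 and repeated values, 0.76 and -0.07, on the remaining arrays (adjusted p = 0.514). Plagl1, Igf2 and Grb10 thus had no probe past the test, and a p that misses the threshold does not show that skin and reference were alike.

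**Figure D2:**
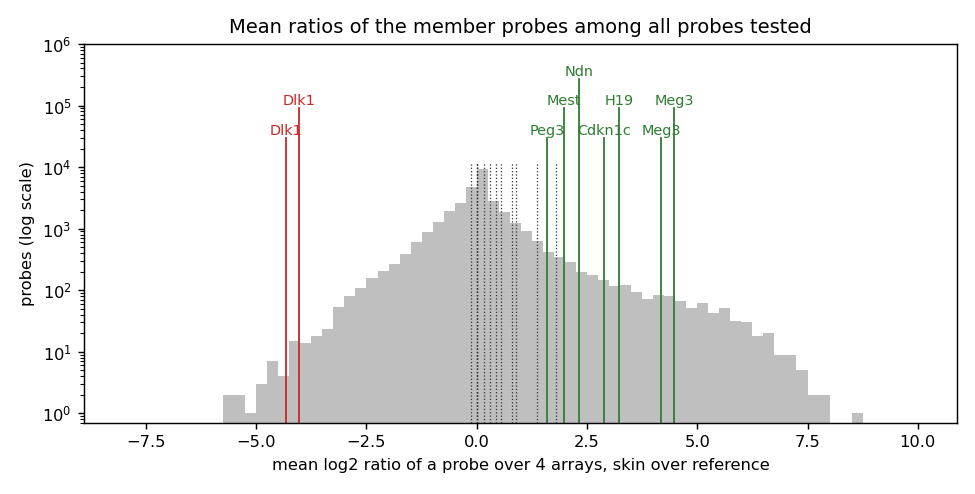
Number of probes (log scale, bins of 0.25) by mean log2 ratio of skin over reference on 4 arrays; grey bars are all 32664 probes, coloured lines the 9 member probes that passed and dotted lines the 12 that did not. The Dlk1 probes lie at the far left, at -4.32 and -4.02, and the highest Meg3 probe at 4.48.

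Among the 15 member probes without a zero the median SD was 0.29, beside 0.25 for the 21067 probes without a zero in the whole table. No array was lowest or highest for all of these members: array 1-1 was lowest for H19 and Cdkn1c and highest for Mest, and array 2-2 was highest for Cdkn1c, H19 and both NR_027652 probes of Meg3.

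Neighbours of the members in their imprinted clusters were read with the gene test, by which 11.0% of all genes were higher and 7.52% lower. Beside Dlk1 and Meg3, 1 of 3 measured genes was higher: Mirg, a maternally expressed miRNA host RNA, at 3.16, 2.70, 2.72 and 2.65, a mean of 2.81 ± 0.24 (adjusted p = 0.000568). Rian, a further maternally expressed RNA of that cluster, had a zero on array 1-1 and averages of 1.44, 1.18 and 0.13 elsewhere (adjusted p = 0.196), with probe means from 0.00 to 1.36; without exact zeros it stood at 1.44 and passed (adjusted p = 0.0158). Dio3, a thyroid hormone deiodinase, had a mean of -0.03 ± 0.21, with a zero on array 1-2 and repeated values on the other arrays.

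Around Cdkn1c, 5 of 9 neighbours were higher and none lower. These were the lipid transfer protein Osbpl5 (2.17 ± 0.20, adjusted p = 0.000642), the potassium channel Kcnq1 (1.79 ± 0.64, adjusted p = 0.0134), the transcription factor Ascl2 (1.51 ± 0.22, adjusted p = 0.00151), Nap1l4 (1.28 ± 0.04, with probe means from 0.66 to 2.19) and Slc22a18 (1.14 ± 0.18, with probe means of 0.40 and 1.88). Kcnq1 did not pass without array 1-1 (adjusted p = 0.0653) or 1-2 (adjusted p = 0.0554). Neither Kcnq1 nor Slc22a18 passed against a 2-fold change (limma's treat, adjusted p = 0.21 and 0.526). The paternally expressed RNA Kcnq1ot1, which silences this cluster in cis, was at -0.06 ± 0.17. Its 6 probes held 8 zeros. Phlda2, a growth-restraining gene of the placenta, was at 0.19 ± 0.27, but both of its probes gave only zeros and repeated values. Such values do not show that skin and reference were alike.

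Around Ndn, none of 5 neighbours was higher. Mkrn3, a ring-finger gene, was lower, at -1.31 ± 0.75 with arrays between -2.10 and -0.41 (adjusted p = 0.0486), and its values on arrays 2-1 and 2-2 were repeated ones; its one probe did not pass over all probes (adjusted p = 0.0582), and its gene call ended without array 1-1, 1-2 or 2-2 (adjusted p = 0.164, 0.138 and 0.128). Snrpn, a splicing protein gene, stood at 0.25, 2.12, 1.25 and 0.97 (adjusted p = 0.0727), of which 0.25 rests on repeated values. It passed with 1 of its probes (adjusted p = 0.0415). As a gene, Snrpn passed in some alternative settings and not in others. It passed with centring (1.07, adjusted p = 0.0486) and with title numbers as blocks (adjusted p = 0.0284 and 0.0447). It also passed where exact zeros of all genes were set to missing (adjusted p = 0.0118). Snrpn itself held no exact zero, and its mean stayed at 1.15 in that fit. Peg12 was at -0.77 ± 0.13, under the minimum size. Neither Usp29 nor Zim1 passed beside Peg3, nor Copg2 and Klf14 beside Mest, nor Ins2 beside Igf2 and H19. The probes of Usp29, Zim1 and Klf14 gave only zeros and repeated values.

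**Figure D3:**
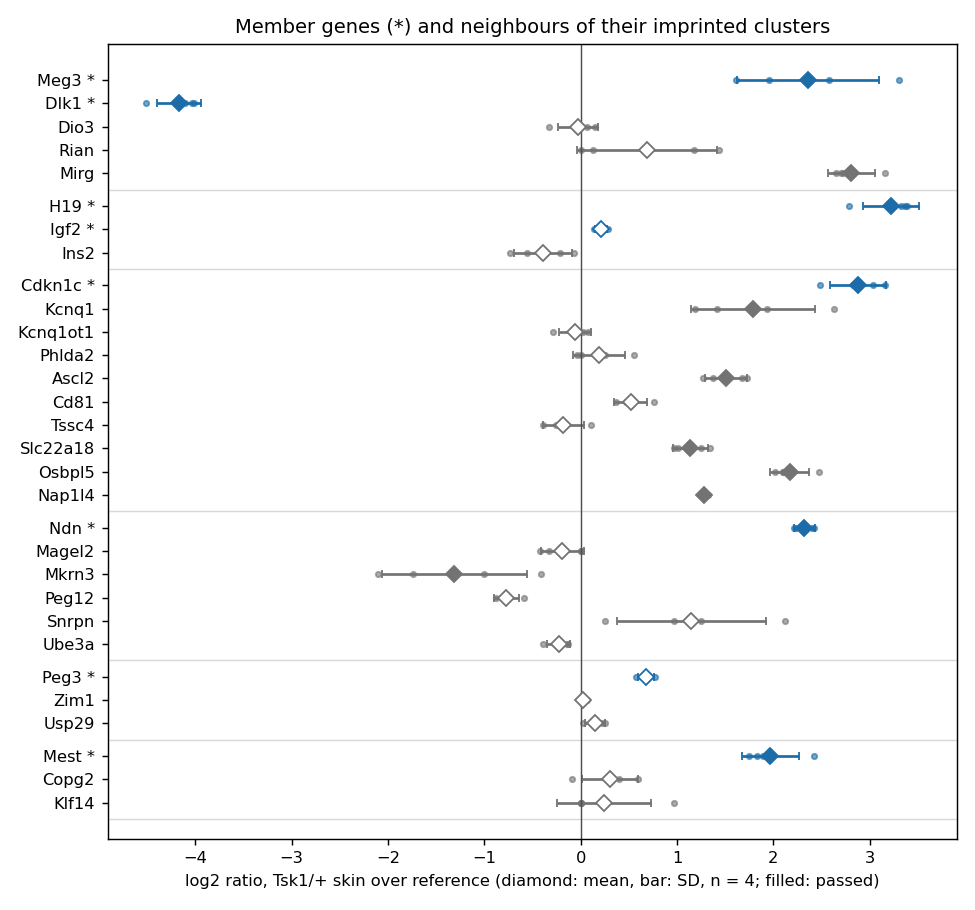
Log2 ratio of skin over reference for the members (blue, starred) and measured neighbours of their imprinted clusters (grey); small points are the 4 arrays, diamonds with bars the mean and SD (n = 4), filled where the gene passed. Dlk1 at -4.17 lies opposite Meg3 and Mirg, and 5 of 9 neighbours of Cdkn1c are filled on the side of skin.

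Other imprinted genes, listed from textbook knowledge, were read with the same test. Of 20 measured paternally expressed genes, 3 (15%) were higher and 2 (10%) lower, near the 11.0% and 7.52% of all genes. The list median was -0.01. Exact zeros were kept, such as 8 for Kcnq1ot1 and 7 for Usp29, and a zero counts as no difference. The highest were Nnat, or neuronatin (2.12 ± 0.52, adjusted p = 0.00491), and Slc38a4, an amino acid transporter (1.43 ± 0.35, adjusted p = 0.00493), and the lowest was Mkrn3. Slc38a4 lost its call in the fit on averages of arrays with the same first title number (adjusted p = 0.0530), and neither Slc38a4 nor Nnat passed against a 2-fold change (adjusted p = 0.211 and 0.0510). Of 26 measured maternally expressed genes, 7 (26.9%) were higher and none lower, with a median of 0.28, led by Mirg and Osbpl5. At an unadjusted p below 0.05 with no minimum size, 7 paternally expressed genes were higher and 4 lower. By that rule 10 maternally expressed genes were higher and 3 lower. All genes were not counted by it, so no share stands beside these counts. At an adjusted p below 0.05 with no minimum size, 4534 of 19532 genes were higher and 3870 lower.

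Among 16 genes of IGF and insulin signalling, 5 (31.2%) were higher and 2 (12.5%) lower, beside 11.0% and 7.52% of all genes. Igfbp5, an IGF-binding protein, was highest (3.56 ± 0.93, adjusted p = 0.00585; probe means of 1.49 and 5.64). Igf2bp3, a fetal RNA-binding protein that binds Igf2 mRNA, was lowest (-2.99 ± 0.24, adjusted p = 0.000528). The receptors Igf1r (-0.19 ± 0.05) and Igf2r (0.22 ± 0.31) stayed under the minimum size. In a list of paralogs of the members, 2 of 11 (18.2%) were higher and none lower. These were the adaptor Grb7 (2.01 ± 0.22, adjusted p = 0.000862) and the growth factor Igf1 (adjusted p = 0.000985, probe means from 0.60 to 2.05).

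Of 14 cyclin-dependent kinase inhibitors and their partners, none was higher and 5 (35.7%) were lower, beside 11.0% and 7.52% of all genes. Among the lower genes only Cdkn2a is an inhibitor. The others are cyclins (Ccne1 and Ccne2) or kinases (Cdk4 and Cdk6). The member Cdkn1c, also an inhibitor, was higher. Cdkn2a, which encodes p16 and p19ARF, was lowest (-2.96 ± 0.29, adjusted p = 0.000676), followed by the cyclin Ccne2 (-1.82 ± 0.68, adjusted p = 0.0158), which did not pass without array 2-1 or 2-2 (adjusted p = 0.0737 and 0.0727). The list's lower count fell to 3 without array 2-2. The closest relatives of Cdkn1c, Cdkn1a (0.62 ± 0.21) and Cdkn1b (-0.04 ± 0.14), were under the minimum size. At an unadjusted p below 0.05 with no minimum size, 2 genes of the list were higher and 9 lower. All genes were not counted by that rule, here or for the next list. Among 13 genes that set or keep methylation imprints, none was higher and 2 (15.4%) were lower. These were Uhrf1, which guides the maintenance methyltransferase (-2.59 ± 0.23, adjusted p = 0.000622), and Trim28, the corepressor that works with ZFP57 (-1.16 ± 0.36, adjusted p = 0.00920). At an unadjusted p below 0.05 with no minimum size, 2 genes of this list were higher and 5 lower. Trim28 did not pass without array 1-1 (-0.99) or 2-1 (adjusted p = 0.0520), and the list held 1 higher and 1 lower gene without array 2-1.

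**Figure D4:**
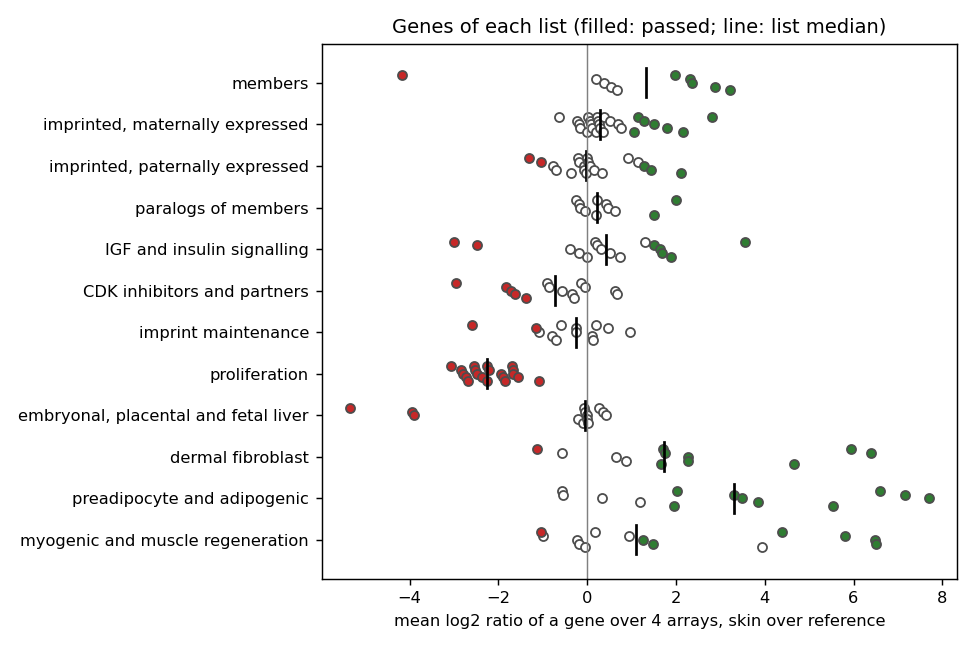
Mean log2 ratio of skin over reference (x axis) of each measured gene in 12 lists; green and red points passed as higher and lower, open points did not, and the black line is the list median. The member genes have a median of 1.33, the paternally expressed list -0.01 and the proliferation list -2.25. Exact zeros are kept in these values.

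The 2 RNA sources differ in their cells, and genes that mark cell types differed from the reference as well, in both directions. Over all genes 11.0% were higher and 7.52% lower. Of 12 dermal fibroblast genes 8 were higher and 1 lower (median 1.73, array medians from 1.66 to 1.80), with Lum at 6.40 ± 0.08 and Mfap4 at 5.95 ± 0.51, and Twist2 at -1.12 ± 0.16. Among 13 preadipocyte and adipogenic genes 9 were higher (array medians from 2.24 to 3.60), led by Cidec (7.69 ± 0.46) and Plin1 (7.17 ± 0.89). Muscle and myogenic genes were higher in 6 of 14 cases and lower in 1 (array medians from 0.55 to 1.19), with Myh2 at 6.51 ± 0.76, Ckm at 6.48 ± 0.61 and Pax3 at -1.03 ± 0.20; Pax3 fell under the minimum size without array 2-1 (-0.96). Endothelial genes were higher in 7 of 10 cases (array medians from 1.88 to 2.31), including Esam (4.38 ± 0.39) and Tek (2.78 ± 0.26). Of the 14 cornified epidermis genes that set the direction, 12 were higher, led by Kprp (8.68 ± 0.93) and Flg2 (7.47 ± 1.01), and Flg was listed at 0 on every array. All 20 measured proliferation genes were lower (median -2.25), such as Aurkb (-3.06 ± 0.37) and Mki67 (-2.83 ± 0.14). Of 13 embryonal, placental and fetal liver genes 3 were lower, among them Rhox5 (-5.33 ± 0.42) and Afp (-3.94 ± 0.40), while Pou5f1 and Tdgf1 were listed at 0 on all arrays. The part of these cell types, and of the reference's own cells, in the ratios of the imprinted genes was not tested.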

How the data were processed

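Per the labels, skin RNA was extracted with a fibrous-tissue kit, amplified, labelled and hybridised against the reference. The authors deposited 1 log ratio per probe and array, read here as a log2 ratio; for background correction, normalization, log base and direction nothing is given in the sources used here. Among repeated values of an array, 12 of 970 pairs lay 2 apart (tolerance 0.001), the distance that reciprocal 2-fold ratios have in log2, against 1 pair at the natural log distance and 0 at that of log10. Scanner intensities were not used here, depth has no meaning for arrays, and their number limits the precision.

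Of 41174 probes, 32664 have 1 gene symbol in the platform annotation, 45 have several and 8465 are unnamed; only the first kind was tested, with symbols updated by Entrez ID (32524 matched). limma 3.58.1 in R 4.3.3 tested the mean ratio against 0 (lmFit, eBayes, two-sided, Benjamini-Hochberg over all features with at least 3 values), for probes and for genes (mean of probes). A feature passed at adjusted p below 0.05 and a mean of at least 1 in size. The script was tested on simulated data. Alternatives were 16 settings for zeros, repeated values, centring, scaling, left-out arrays, title numbers, minimum size, moderation and probe summary. Members and lists were chosen with earlier results of these data known. All member probes are named, with the 2 largest genes past the test of each list, the most opposite one, and neighbours in the imprinted clusters; other genes named were chosen after their values were seen. Figures used matplotlib 3.10.9.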

Additional observations from a re-analysis of the deposited data

Results flagged for a closer look

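Among 73 members, member probes and other named genes, 6 had 1 array far from the other 3, with a gap, as a share of the whole range, above Dixon's 95% critical value for 4 samples; chance alone gives such a gap in about 1 of 20 sets of 4. For H19 array 1-1 (2.79) lay below the others, with a gap of 0.889 of the range. The highest Grb10 probe stood out on array 2-2 (1.29, gap 0.884), and the Plagl1 probe with 2 zeros on array 2-1 (0.76, gap 0.920). Mirg stood out on array 1-1 (3.16, gap 0.860). Klf14 on array 1-1 (0.97) and Zim1 on array 2-1 (0.07) stood against 3 values listed at 0, a gap of 1.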

How the results depend on the processing

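The 9 member probes that passed kept their direction under each alternative run, and their calls too, except 1 Peg3 probe against a 2-fold change (limma's treat, adjusted p = 0.0601). Without a minimum size 6267 probes were higher and 5846 lower, as were 4534 and 3870 genes, 8 members higher, and 4 paternally and 2 maternally expressed genes lower. With treat the counts were 1995 and 1170 probes, 1338 and 694 genes, 1 paternally and 4 maternally expressed genes higher and 0 paternally expressed genes lower. Without exact zeros 5 paternally expressed genes were higher. The lower count of that list was 1 with scaled arrays, averaged title numbers, robust moderation or the median of probes, and 0 to 1 without single arrays. Leaving out 1 array kept 7 member probes higher and 2 lower, and 4 to 5 member genes higher. Small values that had not passed reached 0 or turned sign in some settings. Without single arrays, the second Igf2 probe ran from -0.27 to 0.00, a Grb10 probe from -0.26 to 0.16, a Plagl1 probe from -0.02 to 0.25, Dio3 from -0.09 to 0.07 and Kcnq1ot1 from -0.10 to 0.02, while Klf14 (0.00 to 0.32) and Zim1 (down to 0.00) reached 0 without crossing it. Ube3a was at 0.02 with the median of probes and Zim1 at -0.06 with centring. The cause of these changes was not tested, beyond what each setting does by construction. Arrays sharing a title number were not the more alike (correlation -0.302 for the first number and -0.233 for the second, over probes). Negative values for both numbers leave the remaining pairing as the one in which arrays were more alike on average. That pairing is 1-1 with 2-2 and 1-2 with 2-1, and no fit with it was run. The p-values treat the 4 arrays as independent, and the fits with title numbers as blocks do not allow for this pairing. Some genes had like values in these pairs, such as Plin1 (7.82, 6.30, 6.52 and 8.05), and others did not, such as Ndn. No paired analysis was possible because there is 1 group.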
